A study of Mus musculus with 4 samples.

Results

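The exons described here are simple cassette exons whose length is a multiple of 3, so that a transcript with the exon and one without it keep the same reading frame downstream. They were taken from the deposited table of cassette exons, as the rows marked as simple events (S or S*) with a length of 51 to 300 nt divisible by 3. Of 54336 rows in that table, 14110 met this rule. A percent spliced in (PSI), that is, the share of transcripts of a gene that include the exon as estimated from exon junction reads, was given in all 4 libraries for 12432 of them and not for the other 1678. A further 3515 had a PSI but did not reach a coverage score of LOW in 3 libraries, which left 8917 exons in 4775 genes. Of these, 8293 were marked S and 624 S*, the median length was 114 nt, and 2231 genes held 2 or more of the exons, up to 12 in a gene. For comparison, 20653 rows of the same length and type had a length that is not a multiple of 3, and 13300 of these passed the same minimum, as did 32984 rows of the table in all.

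The RNA was from N2a cells, a neuroblastoma line from the mouse, in which a pool of non-targeting siRNAs (siControl) or, per the study's methods, 1 siRNA to Arglu1 (siArglu1) had acted for 48 h before a treatment of 4 h with vehicle (Veh, ethanol) or with Dex, that is, the synthetic glucocorticoid dexamethasone at 100 nM. The 4 groups are written siControl Veh and siControl Dex for the controls, and siArglu1 Veh and siArglu1 Dex for the knockdown. Where 4 values of an exon are listed without names, they follow this order. With 1 siRNA, the knockdown and any other effect of that siRNA cannot be told apart in these libraries. Outside them, the study reports similar splicing changes with independent siRNAs to Arglu1. It also measured selected splicing events by RT-PCR and reports a high correlation with the sequencing. mRNA of 3 cultures was pooled in each, and 1 library was sequenced per group, so no group has a replicate of its own and the spread between cultures is unknown. The comparisons ask which exons differ in inclusion when ARGLU1 is depleted and when the glucocorticoid is given. Knockdown was measured in 2 pairs that share no library, siArglu1 Veh minus siControl Veh (the vehicle pair) and siArglu1 Dex minus siControl Dex (the Dex pair), and Dex likewise in siControl and in siArglu1.

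A cassette exon is kept or skipped as a unit when the pre-mRNA is spliced. Whether it is kept depends on the strength of its splice sites and on the proteins that bind in and around it. An exon with a whole number of codons adds or removes a stretch of protein in between, whereas skipping of any other exon changes every codon that follows and commonly leads to a premature stop codon and decay of the mRNA. Frame-preserving exons can thus give a pair of proteins that differ by an internal stretch alone, and neurons make much use of them in proteins of the cytoskeleton, of adhesion and of membrane traffic. ARGLU1 is a nuclear protein rich in arginine and glutamate. The study reports that it interacts with splicing factors and coactivates nuclear receptors such as that for glucocorticoids.

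The targeted gene was low in both libraries labelled siArglu1. Its reads numbered 10165 (Veh) and 11825 (Dex) with siControl, against 2637 and 3254 with siArglu1, which after scaling is 26.4% of siControl in vehicle and 22.5% in Dex. Of 14 markers of neuroblastoma and sympathetic neurons, 13 had a cRPKM (reads per mappable kilobase, scaled to depth) of at least 1 in all libraries, and Nefl was near 0. Their summed cRPKM was 1634 and 1672 in the siControl libraries and 2073 and 2079 in the siArglu1 libraries. The markers did not move together. Highly expressed ones such as Tubb3, Stmn2 and Hand2 were higher in both siArglu1 libraries, Gata2, Th and Map2 were lower, and Chgb was level. Of 11 markers of glia, fibroblasts, leukocytes and endothelium, 10 stayed under a cRPKM of 1 in all libraries, and the sum of the 11 lay between 1.97 and 2.93. The part of the higher neuroblastoma sum in siArglu1 in the results was not tested, and in bulk RNA fewer cells of a type and less RNA per cell cannot be told apart. Depth was between 66074574 and 86541444 reads on genes. The coverage of the exons was lowest in siArglu1 Veh, where 56.5% of the 8917 had the best score (SOK) against 69.8% to 72.1% in the others, and where 190 had the lowest score (N) against 1 to 3. In the deposited tables of splice sites, which also give reads, SOK stands for 100 or more reads, OK for at least 40, LOW for at least 20, VLOW for at least 10, and N for fewer. Whether the scores of cassette exons stand for the same numbers was not checked, so these serve as a guide only. A PSI of 50 has an exact binomial 95% interval of 27.2 to 72.8 at 20 reads, of 33.8 to 66.2 at 40 and of 39.8 to 60.2 at 100, which covers counting error only. All results were therefore also counted over the 7543 exons with OK or SOK in all libraries.

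The sequences of the exons on which the results turn are given first, from 5′ to 3′ on the strand of the gene. They were chosen because they had the largest differences after knockdown, or stand for the gene groups below, and lie wholly in coding sequence. Capitals mark the first and the last 3 bases, which lie at the splice sites. Positions are those of the deposited table (mm9). The letters were read from GENCODE M21 transcripts (GRCm38), in which an exon of the same gene, of the same length and between introns of the same lengths was found for 7813 of the 8917 exons (87.6%).

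Included less after knockdown in both pairs:
Dync1i2 (60 nt, chr2:71071706-71071765, plus strand): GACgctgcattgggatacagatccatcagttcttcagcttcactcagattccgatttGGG
Bptf (174 nt, chr11:106905806-106905979, minus strand): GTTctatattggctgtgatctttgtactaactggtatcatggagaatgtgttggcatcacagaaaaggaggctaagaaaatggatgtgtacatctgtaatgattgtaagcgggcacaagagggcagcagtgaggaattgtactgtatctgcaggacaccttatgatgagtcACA
Depdc5 (66 nt, chr5:33301930-33301995, plus strand): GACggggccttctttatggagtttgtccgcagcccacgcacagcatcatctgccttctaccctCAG
Mynn (84 nt, chr3:30511391-30511474, plus strand): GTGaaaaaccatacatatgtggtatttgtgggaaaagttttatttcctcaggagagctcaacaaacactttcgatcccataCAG
Rif1 (78 nt, chr2:51972188-51972265, plus strand): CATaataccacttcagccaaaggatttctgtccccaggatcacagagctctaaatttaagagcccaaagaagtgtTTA
Dclk2 (81 nt, chr3:86597141-86597221, minus strand): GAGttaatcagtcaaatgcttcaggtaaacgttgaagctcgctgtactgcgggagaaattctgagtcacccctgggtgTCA
Mbnl1 (54 nt, chr3:60418605-60418658, plus strand): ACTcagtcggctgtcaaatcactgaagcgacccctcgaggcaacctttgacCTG
Lrp8 (177 nt, chr4:107542617-107542793, plus strand): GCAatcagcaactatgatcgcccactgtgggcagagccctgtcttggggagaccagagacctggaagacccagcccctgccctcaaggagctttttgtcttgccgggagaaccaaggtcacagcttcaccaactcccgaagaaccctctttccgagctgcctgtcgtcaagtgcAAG

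Included more after knockdown in both pairs:
Ciz1 (72 nt, chr2:32221323-32221394, plus strand): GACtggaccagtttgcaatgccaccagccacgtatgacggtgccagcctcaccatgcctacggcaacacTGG
Dst (111 nt, chr1:34360266-34360376, plus strand): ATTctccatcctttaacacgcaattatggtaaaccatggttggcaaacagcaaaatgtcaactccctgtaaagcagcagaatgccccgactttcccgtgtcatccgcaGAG
Sbf1 (78 nt, chr15:89126383-89126460, minus strand): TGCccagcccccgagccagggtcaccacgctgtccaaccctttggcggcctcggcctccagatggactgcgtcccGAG
Myo5a (81 nt, chr9:75040191-75040271, plus strand): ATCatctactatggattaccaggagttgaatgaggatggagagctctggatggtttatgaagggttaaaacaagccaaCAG

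At intermediate inclusion and little different between the libraries:
Papola (63 nt, chr12:107071310-107071372, plus strand): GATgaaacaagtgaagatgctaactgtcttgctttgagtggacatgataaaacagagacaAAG

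Most frame-preserving exons were included nearly always. In siControl Veh, 6549 of 8917 (73.4%) had a PSI over 90, of which 3181 were at 100, 1397 (15.7%) had a PSI under 10, and 971 (10.9%) lay between 10 and 90. Exons between 10 and 90, called intermediate here, made up 11.1% in siControl Dex, and 11.8% (Veh) and 11.3% (Dex) after knockdown. They were found in 878 genes, 84 of which held 2 or more. In the exons that are not a multiple of 3, the intermediate share was 8.24% to 9.15% in the same libraries, and over all rows compared it was 12.3% to 13.2%. With OK or SOK in all libraries, the share was 10.3% of the frame-preserving and 7.5% of the other exons in siControl Veh. The order of both classes was the same in each of the 4 libraries, and it was not tested, since the libraries share their genes and have no replicates. The shortest exons were most often intermediate: 13.6% of the 3392 exons of up to 99 nt, 9.43% of the 3339 of over 100 to 150 nt, and 8.97% of the 2186 of over 150 to 300 nt.

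**Figure D1:**
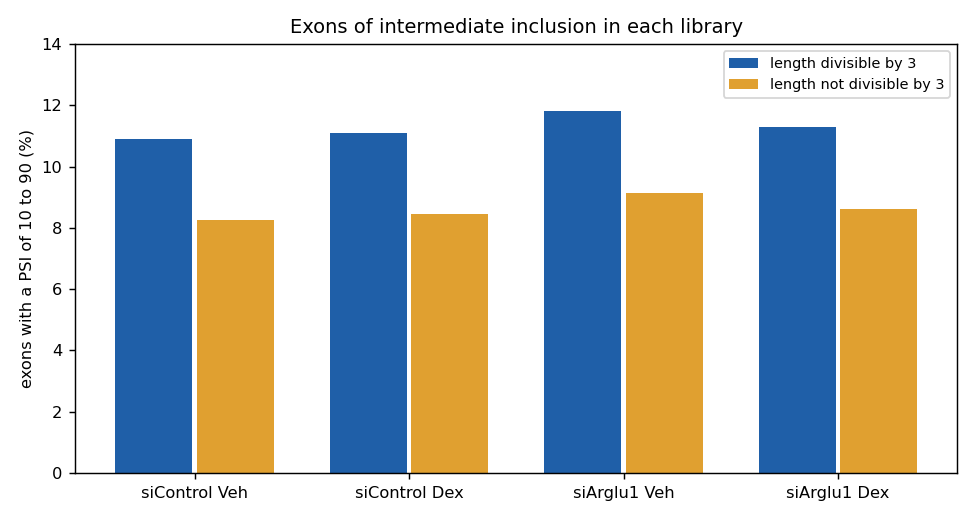
The share of exons with a PSI of 10 to 90, in percent, in each of the 4 libraries, for simple cassette exons of 51 to 300 nt whose length is (8917) or is not (13300) a multiple of 3. The share was 10.9% to 11.8% in the frame-preserving exons and 8.24% to 9.15% in the others.

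An exon counted as different when its PSI differed by at least 15 between the libraries of a pair. The rule concerns size alone, and no test goes with it. In the vehicle pair, 176 exons (1.97%) differed, 73 higher and 103 lower in siArglu1; over all cassette rows compared, 2.39% differed, 1.02% higher and 1.37% lower. The vehicle pair holds the library with the least coverage, and the part of this in its count was not tested. In the Dex pair, 138 exons (1.55%) differed, 58 higher and 80 lower, where the background was 1.89%, with 0.858% higher and 1.03% lower. In the same direction in both pairs, 60 exons (0.673%) differed, 24 higher and 36 lower, against a background of 0.8%, with 0.303% higher and 0.497% lower. The frame-preserving exons were thus changed at a share a little under that of the whole table, which also holds complex events and microexons. In the class of the same type and length that is not a multiple of 3, the shares were 1.34% in vehicle, 1.07% in Dex and 0.338% in both pairs. With OK or SOK in all libraries, 109 of the 7543 frame-preserving exons (1.45%) differed in vehicle and 87 (1.15%) in Dex. At that coverage, 45 of 7543 frame-preserving exons (0.597%) and 27 of 11340 others (0.238%) differed in both pairs, against 0.694% of all rows with that coverage.

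Most differences in vehicle had the same sign in Dex, between libraries that the vehicle pair did not use, but fewer had the same size. Of the 176 exons, 150 (85.2%) moved in the same direction in the Dex pair, 60 of them by 15 or more, and 2 (Rnf215 and Arhgef12) passed 15 in the opposite direction. Of the 109 among them with OK or SOK in all libraries, 104 (95.4%) moved the same way and 0 passed 15 in opposite directions, and of the 57 with SOK in all, 54 did. Across exons, which are not independent replicates, the ΔPSI of the pairs had a Pearson's r of 0.482 over all 8917, of 0.586 over those with OK or SOK in all libraries and of 0.72 over the 4847 with SOK in all. Spearman's rank correlation was lower, 0.263, 0.286 and 0.347 in the same order, and most exons lay near 0 or 100 in every library.

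**Figure D2:**
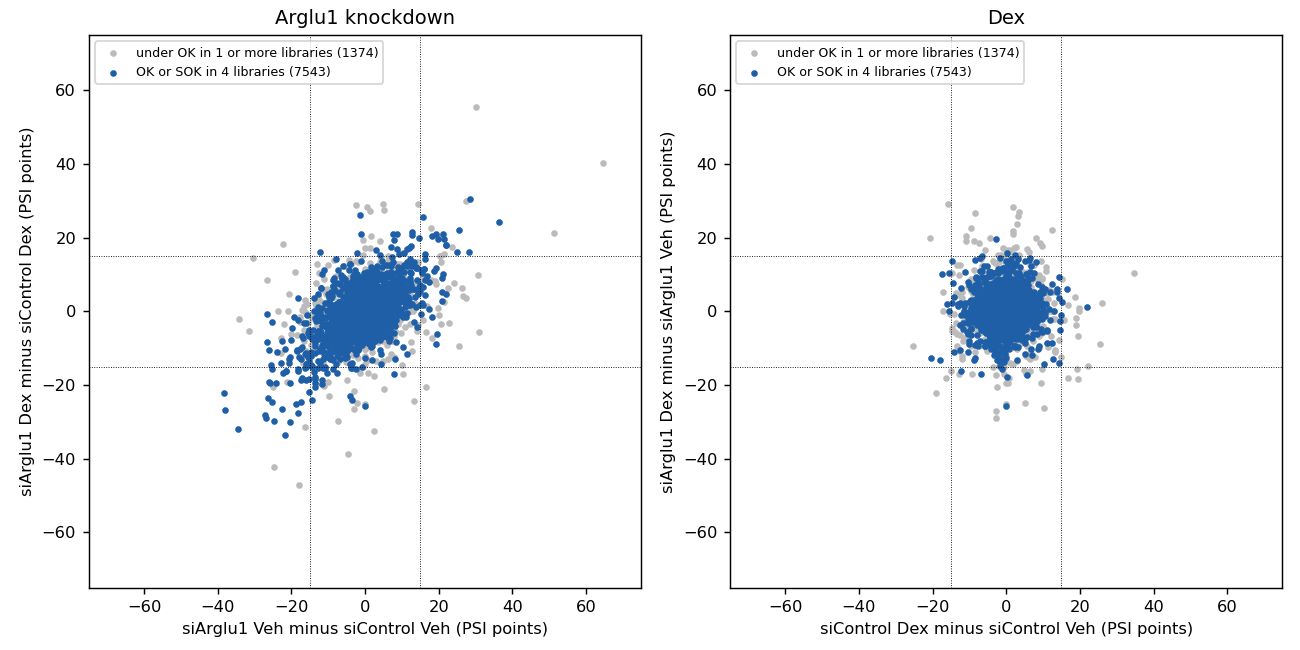
ΔPSI of the 8917 exons, in PSI points, for knockdown in Dex against knockdown in vehicle (left) and for Dex in siArglu1 against Dex in siControl (right). Each point is 1 exon, blue with OK or SOK in all 4 libraries and grey otherwise, and dotted lines mark 15 PSI; the points of knockdown follow the diagonal (r = 0.482) and those of Dex do not (r = -0.004).

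Most of the exons that differed had intermediate inclusion. To keep the baseline apart from the difference, exons were grouped by the PSI of the siControl library that the pair does not use. In the vehicle pair, 24.8% of the 141 exons with a PSI of 25 to 50 in siControl Dex differed, and 22.7% of the 220 with 50 to 75. The share was 11.2% at 10 to 25 and 8.7% at 75 to 90. It was 0.215% of the 1398 exons under 10 and 0.444% of the 6533 at 90 or more. In the Dex pair, grouped by siControl Veh, 20.1% differed at 25 to 50, 19.0% at 50 to 75, 6.74% at 10 to 25 and 7.82% at 75 to 90. By direction, at 10 to 25, 15 exons were higher and 6 lower in vehicle, and 11 higher and 2 lower in Dex. At 25 to 50, 15 were higher and 20 lower in vehicle, and 16 and 13 in Dex. At 50 to 75, 16 were higher and 34 lower in vehicle, and 15 and 25 in Dex. At 75 to 90, 13 were higher and 25 lower in vehicle and 10 and 23 in Dex. An exon at 20 has less room to fall by 15 than to rise, and the reverse holds at 85.

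**Figure D3:**
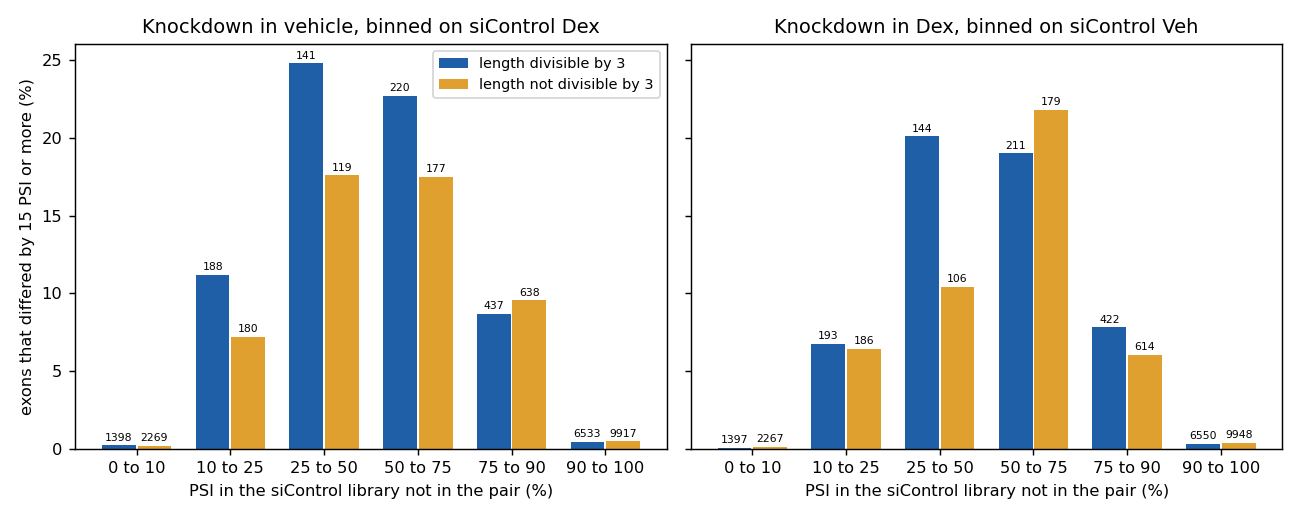
The percent of exons that differed by 15 PSI or more after knockdown in vehicle (left) and in Dex (right), by the PSI in the siControl library that is not in the pair, for exons whose length is (blue) or is not (orange) a multiple of 3. Numbers over the bars are exons; in the vehicle pair the share of the frame-preserving exons was 24.8% at 25 to 50 and 0.444% at 90 to 100.

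Among the 673 exons between 10 and 90 in both siControl libraries and with OK or SOK in all, 273 were higher in both siArglu1 libraries than in their controls, 257 were lower in both, and 143 moved in different directions. The median size of the difference, in either direction, was 6.63 PSI for knockdown in vehicle and 5.83 in Dex, against 2.65 for Dex in siControl and 2.54 for Dex in siArglu1. The ΔPSI of the knockdown pairs correlated with an r of 0.745 across these exons, and the median ΔPSI was near 0 in both (-0.08 and 0.73). Of the exons of any baseline that passed 15 in both pairs at this coverage, 14 were higher and 31 lower. Of the 673, 40 (5.94%) passed 15 the same way in both pairs, compared with 25 of 693 (3.61%) of the exons that are not a multiple of 3, a contrast that was not tested. By length, 23 of 339 such exons of up to 99 nt passed, 8 of 214 of over 100 to 150 nt, and 9 of 120 of over 150 nt.

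**Figure D4:**
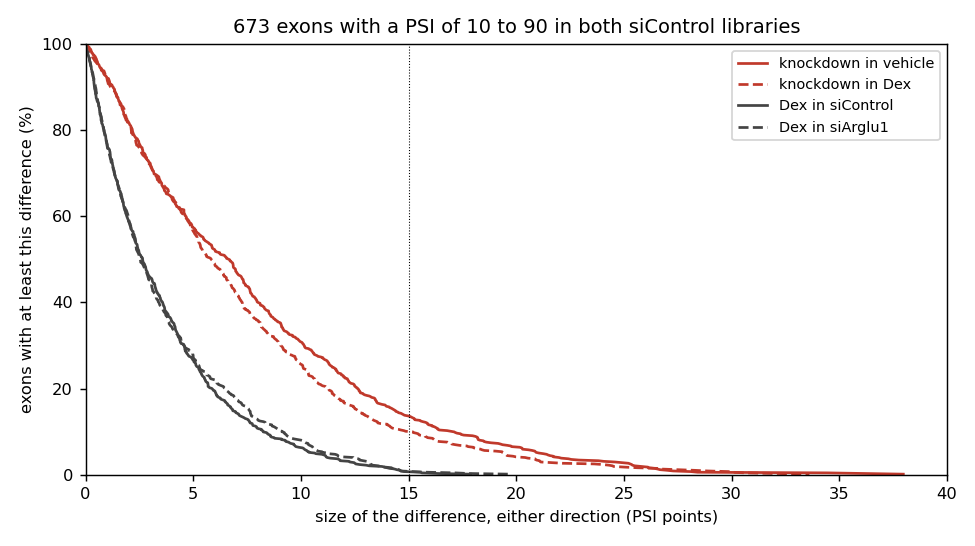
For the 673 exons with a PSI of 10 to 90 in both siControl libraries and OK or SOK coverage in all 4, the percent (y axis) that differed by at least the size on the x axis (PSI points, either direction). Both knockdown pairs (red, medians 6.63 and 5.83) lie to the right of both Dex pairs (grey, medians 2.65 and 2.54), and the dotted line marks 15 PSI.

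An additive model of knockdown and Dex was fitted with limma to all 3163 cassette rows with a mean PSI of 10 to 90 and OK or SOK in all libraries. It takes the vehicle and the Dex pair as repeats of the knockdown and has 1 residual degree of freedom. Of the 798 frame-preserving exons in it, 281 (35.2%) had an unadjusted p under 0.05 in limma for knockdown, 114 higher and 167 lower; over all rows it was 33.8%. At an adjusted p under 0.05 over all rows, 44 of them (5.51%) passed, 14 higher and 30 lower, against 6.26% of all rows. For Dex, 41 (5.14%) had an unadjusted p under 0.05 in limma, against 5.22% of all rows, and 0 passed after adjustment. Without the minimum of OK or SOK, the same model over 4066 rows with a mean PSI of 10 to 90 called 0 for knockdown at an adjusted p under 0.05 in limma, with 1116 at an unadjusted p under 0.05 and a smallest adjusted p of 0.0977, so every call rests on that minimum. The 45 exons past 15 in both pairs with this coverage had adjusted p-values of 0.0378 to 0.0533 in limma, and 42 of them were under 0.05; those over it were Mbnl1 (0.0516), Rgl3 (0.0521) and Ankrd52 (0.0533). Rgl3 was named after its value was seen. The 45 were picked by the same differences that the model tests, so their p-values are no separate evidence.

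The 60 exons that passed 15 in both pairs lay in 60 genes, 1 exon each. In 53 the PSI was 10 to 90 in both siControl libraries. In all 60 the siControl and siArglu1 values did not overlap, which adds little, since the exons were picked for such differences. The median PSI in siControl Veh was 40.8 for the exons that were higher after knockdown and 72.4 for those that were lower. Dex moved the same exons little, by a median of 3.57 PSI in siControl and 2.63 in siArglu1, in either direction. In 40 of the 60 genes other frame-preserving exons were compared, 110 in all, and their median difference was 0.725 PSI in vehicle and 0.76 in Dex. Of these 110, 72 had a PSI over 90 in siControl Veh and 14 were intermediate. A 63-nt exon of Huwe1 differed by -15.5 in vehicle, and a 72-nt exon of Ktn1, a kinesin-binding protein of the endoplasmic reticulum, differed by -16.4 in Dex. These were named after their values were seen. Ktn1 held exons of both directions: the 72-nt exon was at 50.6, 48.1, 36.7 and 31.7 in the same order of libraries as above, while its 84-nt exon was at 17.8, 18.2, 34.2 and 33.7.

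By the smaller difference of the 2 pairs, the largest fall among exons with OK or SOK in all libraries was in Bin1, a BAR domain protein that bends membranes. Its 93-nt exon had a PSI of 61.9 with siControl Veh, 61.9 with siControl Dex, 27.5 with siArglu1 Veh and 29.8 with siArglu1 Dex, all with the best score. Both control libraries were at the same level and the knockdown difference was -34.4 in vehicle and -32.0 in Dex. The 60-nt exon of Dync1i2, an intermediate chain of the motor dynein, stood at 73.4 and 74.8 in siControl Veh and Dex and at 46.1 and 46.6 in siArglu1 Veh and Dex. In the 174-nt exon of Bptf, the large subunit of the nucleosome remodeller NURF, the values were 71.9, 73.2, 44.9 and 44.3 in the same order. The difference in the exons of Dync1i2 and Bptf was -27.0 to -28.9 in every pair, and Dex moved none of the 3 exons by more than 2.36.

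Depdc5, a subunit of the GATOR1 complex that restrains mTORC1, had a 66-nt exon with a PSI of 63.5 with siControl Veh, 51.3 with siControl Dex, 25.5 with siArglu1 Veh and 24.6 with siArglu1 Dex. The controls of this exon were apart from each other (Dex minus vehicle -12.2), and both lay over both knockdown libraries. The 117-nt exon of Arhgef10l, a guanine nucleotide exchange factor, was at 53.7, 49.4, 29.1 and 19.6. The 84-nt exon of Mynn, a zinc finger protein, was at 82.7, 82.4, 57.3 and 57.9. Mynn was read with less depth, with OK in both vehicle libraries, and its difference was -25.4 in vehicle and -24.5 in Dex. Rif1, which acts in replication timing and in repair of DNA breaks, had a 78-nt exon at 86.1, 79.9, 59.6 and 56.3. The 84-nt exon of Ccdc88a, which encodes the actin-binding protein girdin, was at 65.5, 67.4, 43.1 and 40.9. Dclk2, a microtubule-associated kinase of the doublecortin family, had an 81-nt exon at 90.3 with siControl Veh, 83.6 with siControl Dex, 52.0 with siArglu1 Veh and 61.4 with siArglu1 Dex. Its difference was larger in vehicle (-38.3) than in Dex (-22.2), and another exon of Dclk2, of 78 nt, stayed at 99 or more in all libraries. The 234-nt exon of Huwe1, a ubiquitin ligase, was at 72.4, 76.9, 50.7 and 43.2, and is in GENCODE M21 only in a transcript without a coding sequence.

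By the same measure and at the same coverage, the largest rise was in Ciz1, a nuclear zinc finger protein of DNA replication. Its 72-nt exon had a PSI of 52.1 with siControl Veh, 48.1 with siControl Dex, 80.5 with siArglu1 Veh and 78.7 with siArglu1 Dex. Smarcad1, a chromatin remodeller of the SNF2 family, had a 273-nt exon at 23.9, 26.1, 60.1 and 50.4 in the same order, which GENCODE M21 places in a transcript without a coding sequence. Inclusion of both was well apart between the siControl and the siArglu1 libraries. The 111-nt exon of Dst, a plakin that links cytoskeletal filaments, was at 41.9, 45.6, 67.4 and 67.7. The 93-nt exon of Mapt, the microtubule-associated protein tau, was included in 17.98% of transcripts with siControl Veh, 14.2% with siControl Dex, 39.2% with siArglu1 Veh and 35.4% with siArglu1 Dex. The knockdown difference of the tau exon was 21.3 in vehicle and 21.1 in Dex, while Dex went with a difference of -3.74 in siControl and -3.86 in siArglu1.

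Arhgap39, a GTPase-activating protein of neurons, had a 93-nt exon at 34.6, 35.6, 56.1 and 55.2. Sbf1, a catalytically inactive relative of the myotubularin phosphatases, had a 78-nt exon at 27.5 with siControl Veh, 27.0 with siControl Dex, 47.2 with siArglu1 Veh and 46.6 with siArglu1 Dex. The difference was 21.5 in vehicle and 19.6 in Dex for Arhgap39, and 19.8 and 19.5 for Sbf1. Pcm1, the scaffold of centriolar satellites, had a 165-nt exon at 43.7, 42.7, 62.9 and 63.6. The 57-nt exon of Gtf2ird1, a transcription factor of the TFII-I family, was at 64.0, 69.9, 86.0 and 87.9. Gm9571 (60.0, 58.5, 78.2 and 79.1) and the 96-nt exon of Fbxo44 (37.1, 36, 59.1 and 54.0), an F-box protein, complete the 10 largest rises.

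**Figure D5:**
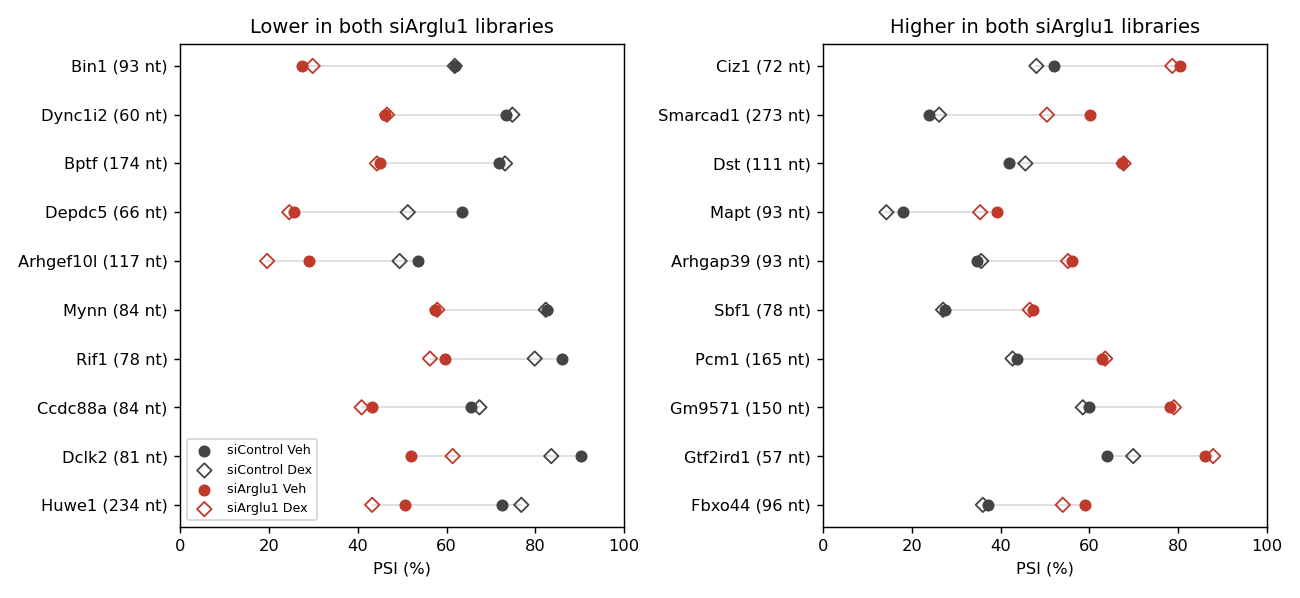
PSI, in percent, of the 10 exons with the largest fall (left) and the 10 with the largest rise (right) after knockdown among those with OK or SOK in all libraries, ordered by the smaller difference of the 2 pairs. Filled circles are vehicle and open diamonds Dex, in grey for siControl and red for siArglu1, and each row is 1 exon; Bin1 went from 61.9 and 61.9 in the controls to 27.5 and 29.8, and Ciz1 from 52.1 and 48.1 to 80.5 and 78.7.

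Exons that the cells included almost always, or almost never, seldom moved. An exon at 10 or less cannot fall by 15 PSI, and one at 90 or more cannot rise by 15. The class that is not a multiple of 3 was similar in the vehicle pair, grouped by siControl Dex. At 90 or more, 0.484% of that class differed, against 0.444% of the frame-preserving exons. Under 10, it was 0.176% against 0.215%. The counts below were not made for all rows. Of 5465 exons with a PSI of 90 or more in both siControl libraries and OK or SOK in all, 59 were under 90 in both siArglu1 libraries and 3 differed by 15 or more in both pairs. These were exons of Tsc2, a restrainer of mTORC1, of Fyttd1, an adaptor for mRNA export, and of the kinase Map3k3. The 129-nt exon of Tsc2 was at 93.6, 90.7, 71.2 and 73.9, the 75-nt exon of Fyttd1 at 92.2, 94.1, 74.8 and 75.5, and the 132-nt exon of Map3k3 at 94.9, 94.6, 78.8 and 79.5, each in the same order of libraries. Exons of Arhgap17 (93.6, 95.7, 81.8 and 77.0) and Pxdn (90.5, 90.8, 75.9 and 79.7) were also among the 5 with the lowest mean PSI in siArglu1. Of 1195 exons with a PSI of 10 or less in both siControl libraries, 14 were above 10 in both siArglu1 libraries and 0 differed by 15 in both pairs. From these, the 5 with the highest mean PSI in siArglu1 and OK or SOK in all libraries were picked. Within the 5, a 198-nt exon of Bcl7b, a subunit of the BAF remodelling complex (7.49, 8.59, 15.9 and 16.2), came first by the smaller difference of the 2 pairs. It was followed by a 174-nt exon of Ppip5k2 (9.75, 8.89, 16.4 and 14.5) and a 180-nt exon of Thumpd3 (5.84, 6.96, 20.7 and 12.4). The rule at 15 PSI cuts through a continuous range. By the smaller of the differences in the 2 pairs, Map3k3 (-15.1), Scamp5 (-15.3) and Rnf32 (-15.3) were just inside it, and Tasp1 (14.7), Sec24c (-14.5) and Bod1l (-14.5) just outside.

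By gene group, sorted by symbol into 7 lists, the cytoskeleton held the largest share of exons past 15 in both pairs, 5 of 319 (1.57%), of which 4 were higher: Dst, Mapt, Pcm1 and Myo5a. The 81-nt exon of Myo5a, a myosin motor that carries vesicles, had a PSI of 42.6 with siControl Veh, 45.5 with siControl Dex, 67.6 with siArglu1 Veh and 61.6 with siArglu1 Dex. The 1 lower exon of the list was that of Dync1i2. In kinases and phosphatases, 5 of 395 (1.27%) passed, all of them lower: Tnik, Dclk2, Cdc42bpa, Dgki and Map3k3. The 243-nt exon of Cdc42bpa, a kinase that acts with Cdc42 on myosin, was at 76.0, 68.2, 51.9 and 48.8. The 63-nt exon of Dgki, a diacylglycerol kinase, was at 34.5, 44.4, 16.3 and 16.8. Over all 8917 exons 0.673% passed, and the contrast between a list and all exons was not tested.

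In membrane traffic and the synapse, 4 of 485 exons (0.825%) passed, with Bin1, Vps13d and Sec24b lower and Atg16l2 higher. The 105-nt exon of Sec24b, a coat protein of COPII vesicles, was at 78.2, 79.5, 60.0 and 63.7. Of 251 exons in genes of splicing and RNA binding, 2 (0.797%) passed, both lower. Among them, the 54-nt exon of Mbnl1, a splicing regulator in which this exon takes part in nuclear localisation, was at 84.8, 77.5, 59.6 and 61.7. The 1 exon of 113 in cell adhesion was in Lrp8, a receptor for reelin, where it encodes the proline-rich insert of the cytoplasmic tail. It was at 42.7 with siControl Veh, 35.9 with siControl Dex, 21.2 with siArglu1 Veh and 19.8 with siArglu1 Dex. Chromatin had 1 exon higher (Smarcad1) and 1 lower (Bptf) of 299, and transcription factors had 1 higher (Gtf2ird1) and 1 lower (Zfp68) of 266. Of the 6805 exons in no list, 17 were higher and 22 lower. The median ΔPSI was 0 in each list and over all exons, in both pairs.

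Several genes for which the study describes splicing hold exons of this kind: 16 of 19, with 38 exons compared. The study chose these genes on data of these libraries, so their count is not independent evidence. Besides Bin1, Bptf and Dclk2, those past 15 in both pairs were exons of Tnik, Ankrd52, Atg16l2 and Slc9a3r2. The 141-nt exon of Ankrd52 was at 65.8, 76.5, 93.9 and 92.7 with the best score in all libraries. The 87-nt exon of Tnik, a kinase of the Wnt pathway, was at 62.1, 67.6, 37.5 and 25.3, with VLOW in siArglu1 Veh. The 63-nt exon of Atg16l2 was at 7.69, 12.9, 59.0 and 34.2, also with VLOW in siArglu1 Veh, and the 63-nt exon of Slc9a3r2 was at 48.4, 33.6, 78.7 and 89.1 with LOW in 3 libraries. The size of the difference in these 3 rests on a score under OK in at least 1 library. The 147-nt exon of Numb, a regulator of Notch in which it lengthens the proline-rich region, was at 42.4, 42.1, 26.0 and 34.1 and passed 15 in vehicle alone, with scores of LOW or VLOW. The 63-nt exon of Papola, a poly(A) polymerase, was at 52.6, 50.8, 55.6 and 53.9, and its difference was 3.01 and 3.08. The other exons of these genes in Klhdc3, Rbck1, Ptprf and Ankrd52 were within 5 PSI of 0 or of 100 in every library.

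The 15 exons past 15 in both pairs without OK or SOK in all libraries include the largest differences of all. They were chosen for mention after their values were seen. The 105-nt exon of Golgb1, a Golgi tether, was at 35.3, 48.6, 100 and 88.9, with N in siArglu1 Veh and LOW in both Dex libraries. The 120-nt exon of Arhgef11, a guanine nucleotide exchange factor, was at 59.2, 68.8, 41.2 and 21.7, with N for siArglu1 Veh and LOW for siArglu1 Dex. At this depth the size of such a difference is not fixed by the data.

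Dex was accompanied by fewer differences, and few of them were shared by siControl and siArglu1. In siControl, 34 exons (0.381%) differed by 15 or more between Dex and vehicle, 20 higher and 14 lower, against 0.643% of all cassette rows. In siArglu1, 68 (0.763%) differed, 36 higher and 32 lower, against 0.849% of all rows. With OK or SOK in all libraries the counts were 9 (0.119%) and 10 (0.133%), against 0.231% and 0.257% of all rows with that coverage. With SOK in all they were 0 and 2 (0.0413%), against 0.0233% and 0.0698%. Those 2 were named after their values were seen, and lie in Ank2 and Nup98. Of the 34, 15 moved the same way in siArglu1, 2 passed 15 there in the same direction (Meis3 and Dgka, both lower) and 5 in the opposite direction. The ΔPSI for Dex in siControl and in siArglu1, which share no library, had an r of -0.004 across the 8917 exons and of 0.022 over those with OK or SOK in all.

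Among exons with OK or SOK in all libraries, 6 are named for the largest Dex difference in the same direction in siControl and siArglu1. The 81-nt exon of Rfxank, a part of the RFX complex at MHC class II genes, was at 91.4 with siControl Veh, 71.0 with siControl Dex, 89.5 with siArglu1 Veh and 76.8 with siArglu1 Dex. The 57-nt exon of Dzip1, a protein of the primary cilium, was at 79.8, 61.9, 76.2 and 62.9, and the 237-nt exon of Tmlhe, an enzyme of carnitine synthesis, at 92.5, 80.2, 95.03 and 78.8. These 3 were lower and the following 3 higher with Dex. Nnat, an imprinted gene of the nervous system, had an 81-nt exon at 70.7, 85.0, 77.4 and 86.6. Nrp2, a receptor for semaphorins, had a 51-nt exon at 55.0, 63.1, 56.6 and 69.9, and Scml2, a Polycomb protein, a 183-nt exon at 89.96, 97.6, 86.0 and 96.5. In the exons of Nnat, Nrp2 and Scml2 Dex minus vehicle was 7.65 to 14.35 PSI within siControl or siArglu1. The smaller difference stayed under 15 in all 6. The 117-nt exon of Mpdz, a scaffold with many PDZ domains, was at 55.8, 81.2, 51.2 and 42.4, and the 114-nt exon of Tmtc1 was at 90, 64.6, 87.5 and 78.1, where siArglu1 Veh scored VLOW or N and siArglu1 Dex scored LOW.

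Features that the rule did not use were set beside those of other intermediate exons. The comparison group was the 174 intermediate exons with OK or SOK in all libraries that differed by under 5 PSI in both pairs. The 24 higher and 36 lower exons were not held to this. Of these 60, 53 had a PSI of 10 to 90 in both siControl libraries. Only 14 of the 24 and 31 of the 36 had OK or SOK in all, so coverage and direction are mixed in the contrasts. No test was made, and the groups of 24 and 36 are small. The median length was 97.5 nt for the 24 higher exons, 94.5 nt for the 36 lower, 109.5 nt for the 174 stable and 114 nt for all. The median upstream intron was 1059, 2121, 1341 and 1503 nt long in the same order, and the median downstream intron 1410, 1768, 1846 and 1454 nt. Of the exons matched to GENCODE M21, 18 of 21 higher, 29 of 35 lower, 125 of 160 stable and 7133 of 7813 in all lay wholly in coding sequence. None of these held a stop codon in its frame, which follows from their place inside an annotated coding sequence and is no finding. A transcript that skips the exon was annotated for 16 of the 21, 33 of the 35 (94.3%), 129 of the 160 (80.6%) and 1882 of the 7813 (24.1%).

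The median GC content was 56.1% in the higher exons, 50.4% in the lower, 51% in the stable and 50.4% in all. The last base of the exon, where G is the most common in front of the 5′ splice site, was G in 19 of 21 higher exons (90.5%), 23 of 35 lower (65.7%), 127 of 160 stable (79.4%) and 6304 of 7813 in all (80.7%). In the sequences above this is A in Bptf, Dclk2 and Rif1, and G in all the others. Those with G include the lower exons of Dync1i2, Depdc5, Mynn, Mbnl1 and Lrp8. Of coding exons, those that start at the first base of a codon made up 7 of 18 higher, 16 of 29 lower, 73 of 125 stable (58.4%) and 60.3% of all. The study derived for ARGLU1 an RNA motif that is spelled CGGAGG or CGGGGG. It was searched on the strand of the gene within the exons only, and was found in 0 of 21 higher, 1 of 35 lower, 5 of 160 stable (3.12%) and 263 of 7813 exons in all (3.37%). Introns were not searched, as no genome of the build was used. The study did search around the alternatively spliced exons and reports that such sites were not enriched there globally. It also reports that pulldown of ARGLU1 enriched the pre-mRNA of Bin1 and Lpin1, but not that of Brwd3.

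The host genes of the 60 exons past 15 in both pairs were examined for expression, by a log2 ratio of at least 0.81 in the reads per gene. In vehicle, 0 were higher and 10 lower in siArglu1 (16.7%), and in Dex 0 were higher and 4 lower (6.67%). Over all 12497 genes compared, 15.8% passed in vehicle, 875 higher and 1099 lower, and over the 4754 host genes of the 8917 exons 11.4% passed, 153 higher and 388 lower. In Dex, 12.1% of all genes passed, 775 higher and 741 lower, and 7.34% of the host genes, 138 higher and 211 lower. With both directions pooled, the share of the 60 was near that of all genes in vehicle and under it in Dex. By direction they differed, since all that passed among the 60 were lower, which was not tested. The median log2 ratio in vehicle was -0.43 for the 60, -0.11 for the host genes of all the exons and 0.004 for all genes. Of the exons named above that passed 15 in both pairs, the hosts that were lower in vehicle were Bptf (log2 ratio -0.94), Tnik (-1.54), Ccdc88a (-1.01), Huwe1 (-0.86), Arhgef11 (-2.01), Vps13d (-0.90) and Golgb1 (-1.13). Those of Bin1 (0.43), Dync1i2 (0.12), Mynn (0.01), Ciz1 (-0.50) and Mapt (-0.70) stayed under the threshold. PSI is a share within the transcripts of a gene, and a lower level of the gene leaves fewer reads for it.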

How the data were processed

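mRNA of 3 pooled cultures per group was sequenced by the authors, 1 library per group, and the submitters' processing notes name Bowtie and mm9. The authors deposited PSI as a percent of 0 to 100 per exon and library, made with vast-tools (version not given in the sources used here), beside coverage scores in words. The authors also deposited the count of reads per gene, not normalized, and a mappability-corrected RPKM (cRPKM). Their 2 columns of ratios, Dex over vehicle, were not used. PSI was compared as deposited. Exons needed a PSI in all 4 libraries and LOW or better in 3, and a difference of at least 15. With 1 library per group there is no test between the libraries of a pair, and p-values come only from an additive limma model (limma 3.58.1, R 4.3.3, 1 residual degree of freedom, Benjamini-Hochberg), chosen after seeing the data. The read counts were scaled with TMM factors (edgeR 4.0.16) computed on genes with 75 or more reads in all, and log2 CPM took a prior count of 1. The factors were 0.984 to 1.01. Blank counts were taken as 0. Gene lists are patterns of gene symbols. The members, the lists and the rule for named exons were chosen with earlier results of these data known. The rule takes exons of the genes that the study names for splicing, the 10 largest rises and falls after knockdown, 3 of each for Dex, up to 3 per gene list, 5 from each end of the PSI range, and 3 on each side of the threshold. Scripts were tested on simulated data. Alternatives were other thresholds, coverage minimums, event classes and 1 exon per gene. The values of 1 exon and the sequence of another are not reported here.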

Additional observations from a re-analysis of the deposited data

Results flagged for a closer look

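In 2 exons the knockdown difference passed 15 PSI in opposite directions in vehicle and in Dex, and in 5 the difference with Dex did so in siControl and in siArglu1. With 1 library per group none of these contrasts was tested, and each rests on at least 1 library with a score under OK. The 60-nt exon of Rnf215 had a PSI of 57.5 with siControl Veh, 79.7 with siControl Dex, 73.9 with siArglu1 Veh and 59.1 with siArglu1 Dex, so that the knockdown difference in Dex minus that in vehicle was -36.98. For the 57-nt exon of Arhgef12, at 58.6, 38.03, 36.4 and 56.4 in the same order, this contrast was 40.59, which is by construction also that of Dex in siArglu1 minus Dex in siControl. The latter contrast was -34.78 for a 159-nt exon of Brwd3 (60.6, 77.4, 63.0 and 44.9), -34.79 for a 69-nt exon of Btbd19 (74.6, 93.7, 100 and 84.3), 44.98 for a 108-nt exon of Map3k5 (95.2, 79.5, 64.7 and 93.9) and -37.68 for a 144-nt exon of Slc16a13 (80.6, 100, 93.9 and 75.6).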

How the results depend on the processing

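No replicate could be left out, since each group is 1 library, and no paired analysis was possible by replicate number because the groups have 1 library each. The additive model below takes the vehicle and Dex pairs as repeats of the knockdown. Of 53 alternatives, 16 gave a count within 1.5 times the one reported and 37 moved it further. The main counts were 176 exons for knockdown in vehicle, 138 in Dex, 60 in both, 34 for Dex in siControl and 68 in siArglu1. In this order they were 413, 348, 154, 154 and 222 at a threshold of 10, and 33, 31, 8, 4 and 10 at 25. Without the coverage minimum they were 760, 685, 196, 551 and 580, and with SOK in all libraries 57, 45, 30, 0 and 2. With OK or SOK in all they were 109 and 87 for knockdown, 9 and 10 for Dex. With 1 exon per gene they were 97, 83, 35, 22 and 36. With balanced and simple reads in all libraries the Dex counts were 21 and 44. Fewer exons entered under each stricter rule, which alone lowers a count, and the shares moved in some results and little in others. With 1 exon per gene, the shares were 2.03%, 1.74%, 0.733%, 0.461% and 0.754% in the order of the main counts. By the main rule they were 1.97%, 1.55%, 0.673%, 0.381% and 0.763%. The intermediate share was 10.9% by the main rule and 10.2% with SOK in all. For the main rule, OK or SOK in all and SOK in all, the share was 1.97%, 1.45% and 1.18% for knockdown in vehicle. In the same order it was 0.673%, 0.597% and 0.619% in both pairs, and 0.381%, 0.119% and 0% for Dex in siControl. Exons intermediate in siControl Veh were 971, and 494 with SOK in all, 579 with 1 exon per gene, 1723 at 5 to 95 and 486 at 20 to 80. The additive limma model over all cassette rows called 0 at an adjusted p under 0.05 (3642 rows at an unadjusted p under 0.05), but it failed its check on data with known changes and says nothing. Over rows with a mean PSI of 10 to 90 and OK or SOK in all libraries it called 44 of the exons, and without that coverage minimum 0 (4066 rows, 1116 at an unadjusted p under 0.05, smallest adjusted p 0.0977 in limma). Both were chosen after seeing the data. Coverage limits single differences, most in siArglu1 Veh.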

Other observations

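Further exons past 15 PSI in both knockdown pairs, with OK or SOK in all libraries, were named after their values were seen. The 249-nt exon of Cars, the cysteinyl-tRNA synthetase, had a PSI of 55.7 with siControl Veh, 55.3 with siControl Dex, 35.4 with siArglu1 Veh and 35.8 with siArglu1 Dex. The 72-nt exon of Frmd4a, a FERM domain scaffold, was at 67.5, 72.0, 47.2 and 42.0, and the 57-nt exon of Lsm14a, a protein of P-bodies, at 79.4, 75.2, 53.5 and 55.9. The 57-nt exon of Faim, an inhibitor of apoptosis, was at 47.6, 44.2, 28.8 and 19.2. The 84-nt exon of Rragb, a Rag GTPase that acts on mTORC1, was at 89.3, 86.9, 73.0 and 71.4.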
